A study of Mus musculus with 6 samples.

Results

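Rab GTPases are small proteins that give each membrane compartment of a cell its identity and direct vesicles between compartments. Their genes were taken from the gene tables of sorted mouse thymic dendritic cells by symbol: Rab, a number, and at most 1 letter and 1 further digit. The rule found 58 of 23420 gene symbols and used no measured value. Rab1 and Rab7l1 are older symbols for the genes now named Rab1a and Rab29.

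RNA was measured in 6 libraries, 2 from each of 3 groups of cells sorted from the thymus of wild-type mice. YG+ pDCs were plasmacytoid dendritic cells (CD11c low, B220+) that carried yellow-green microspheres. Those mice bore tumours of MC38, a mouse colon carcinoma line. The microspheres were injected into the tumour at 12 days, and the cells were isolated 2 days later. PBS pDCs, from the same gate, and PBS Sirpa+ DCs (CD11c high, Sirpa+), a conventional dendritic cell subset, came from mice given PBS, and the treatment label of every group is 2 weeks. The tumour, the injection and the microsphere gate all separate YG+ pDCs from PBS pDCs and cannot be told apart. Age, sex and strain are not in the labels. The labels do not tell whether both libraries of a group are from different animals. The spread that the p-values rest on is that of these samples and may be technical.

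A Rab protein cycles between an inactive, GDP-bound form in the cytosol and an active, GTP-bound form on a membrane. Guanine nucleotide exchange factors (GEFs) activate it, GTPase-activating proteins (GAPs) inactivate it, GDP dissociation inhibitors (GDIs) carry it through the cytosol, and effectors bind the active form to tether, move or fuse vesicles. Dendritic cells use this traffic to take up antigen, mature the phagosome, load MHC molecules and secrete cytokines, and plasmacytoid dendritic cells also use it to bring nucleic acids to endosomal Toll-like receptors and to secrete type I interferon.

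Gene counts totalled 177844 to 713966 per library, fewest in PBS pDC replicate 1, and were 0.842% to 3.36% of uniquely placed reads. In PBS pDC replicate 1 a single read was worth 6.38 CPM (reads scaled to library size, here to library sizes scaled by trimmed mean of M-values). With 0 reads a level of up to 4.21 to 19.1 CPM remains possible in a library, at 3 counts. Intervals and floors of this kind cover counting error only. Over the 8141 genes tested, log2 CPM of the 2 PBS pDC libraries correlated at 0.737, against 0.931 for the YG+ pDC pair and 0.859 for the Sirpa+ DC pair, so PBS pDC replicate 1 stood apart. The pDC marker list (10 genes) summed to 4329 to 6342 CPM in the 4 pDC libraries and to 770.1 and 887 CPM in Sirpa+ DCs, where the pDC gene Klk1 was at 0 and 1.99 CPM. Sirpa itself was 575 and 748 CPM in Sirpa+ DCs and 198 to 392 CPM in pDCs. The sources used here do not say whether counting used strand, and Tsix had 2.70 to 20.5 times the counts of Xist, the gene it runs antisense to. Per library, 939 to 4484 reads were ambiguous between genes, and 1.91e+07 to 2.28e+07 lay in no gene. Reads of a gene and of an opposite-strand partner may therefore not be told apart. Whether the counts were taken on the strand opposite to the transcripts was not tested, so a Rab value may not be the level of its own transcript. Exons of 15 Rab genes (25.9%, against 24.6% of all genes) touch an exon of the opposite strand.

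Of the 58 Rab genes, 33 had enough counts to be tested. Another 21 had at least 1 count, and Rab3a, Rab9b, Rab17 and Rab33a had none in any library. Together the Rab genes held 0.204% to 0.280% of gene counts. Their summed level was 2298 and 2462 CPM in YG+ pDCs, then 2315 and 2219 CPM in PBS pDCs and 2683 and 2937 CPM in Sirpa+ DCs. The Sirpa+ DC sums were the highest on this scale, while as a share of raw gene counts Sirpa+ DC replicate 1 (0.243%) did not stand above YG+ pDC replicate 2 (0.243%). These are bulk samples, in which fewer cells of a type and less RNA per cell cannot be told apart.

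Levels of different Rab genes were compared per kilobase of exon. Averaged over the 6 libraries, Rab24 led at 77.8 CPM per kb, but an exon of another gene on the opposite strand covers 62.4% of its exon length. It was followed by Rab5c (65.1), Rab10 (59.9), Rab1 (39.0), Rab43 (38.5), Rab2a (38.1), Rab35 (33.4) and Rab8b (30.8 CPM per kb). The genes with the highest counts per kilobase thus came from several routes: early endosomes (Rab5c), secretion (Rab10, Rab8b), endoplasmic reticulum to Golgi (Rab1, Rab2a) and recycling (Rab35). Whether these counts rank the transcripts of different genes was not tested, as few of the placed reads lay in genes and the strand setting is unknown. The order differed between groups. In Sirpa+ DCs Rab5c led at 89.1 CPM per kb, followed by Rab10 (66.4), Rab24 (66.1), Rab43 (64.0) and Rab8b (59.0). In PBS pDCs Rab8b was at 11.4, in YG+ pDCs at 22.0 CPM per kb. Near the bottom of the tested genes were Rab30 (2.69), Rab2b (3.56), Rab36 (4.17), Rab3d (5.22) and Rab22a (5.30 CPM per kb over all libraries). Several of these genes are named after their values were seen, and neighbours in the order were not tested against each other.

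**Figure D1:**
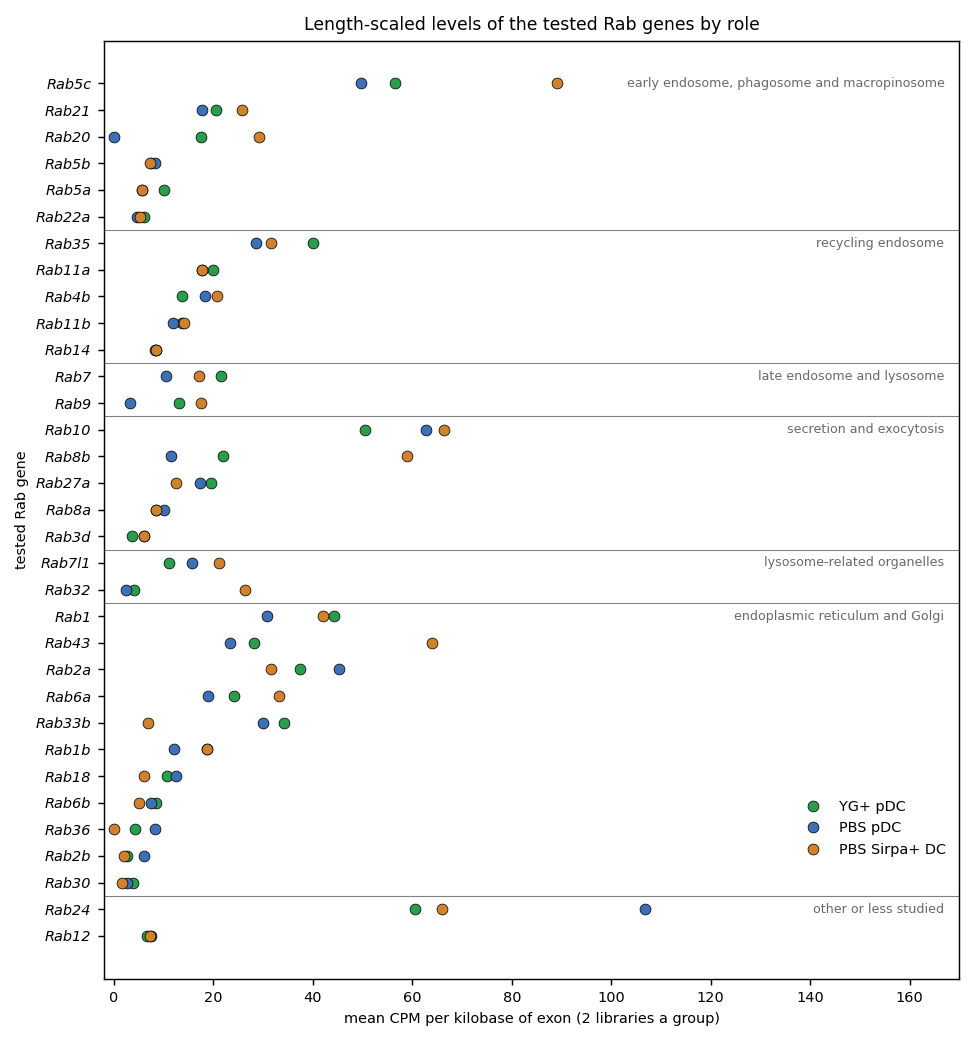
Mean level of the tested Rab genes in CPM per kilobase of exon, by group, with genes sorted within role classes. Rab24, Rab5c and Rab10 have the highest values of their classes, and Rab8b is at 59.0 in PBS Sirpa+ DCs against 11.4 in PBS pDCs.

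Between the 2 cell types of PBS mice, 5 of 33 Rab genes differed. Rab33b and Rab36, both linked to the Golgi, were higher in pDCs, while Rab8b (exocytosis), Rab32 (lysosome-related organelles) and Rab20 (phagosomes and macropinosomes) were higher in Sirpa+ DCs. The edgeR quasi-likelihood test called 2 Rab genes higher in PBS pDCs (6.06%) and 3 lower (9.09%) at an adjusted p under 0.05, where 4.54% and 6.89% of all tested genes were called, 11.4% in both directions. The share of Rab genes called (15.2%) was thus near that of all genes. limma-voom called 3 Rab genes, Rab8b, Rab32 and Rab43, and a fit of only these 4 libraries called Rab8b and Rab32. The median log2 difference was -0.17 over the Rab genes and 0.08 over all genes, and the median size of a difference was 0.51 and 0.68. The libraries of the groups did not overlap for 8 Rab genes higher and 9 lower in PBS pDCs (51.5%), against 22.9% and 24.2% of all tested genes (47.1%). At an unadjusted p under 0.05 there were 7 Rab genes (21.2%), against 24% of all.

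The microsphere-carrying pDCs differed from Sirpa+ DCs in 2 of 33 Rab genes, with Rab33b higher and Rab32 lower. That was 6.06% of the Rab genes, and 7.16% of all tested genes were called (3.07% higher and 4.09% lower). Libraries of the groups did not overlap for 8 Rab genes higher and 10 lower (54.5%), against 32.8% and 29.1% of all genes (62%). At an unadjusted p under 0.05 there were 5 Rab genes (15.2%), against 22.8% of all. Between YG+ pDCs and PBS pDCs edgeR called 0 Rab genes and 0% of all tested genes. At an unadjusted p under 0.05 there were 3 Rab genes (9.09%), namely Rab9, Rab20 and Rab8b, all with higher means in YG+ pDCs, against 11.4% of all genes. DESeq2 and limma-voom also called 0 Rab genes there, while over all genes DESeq2 called 111 and limma-voom 0. Libraries did not overlap for 9 Rab genes higher and 4 lower in YG+ pDCs (39.4%), against 26.5% and 19.3% of all genes (45.8%). The 3 comparisons share libraries, and their values are given side by side below.

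**Figure D2:**
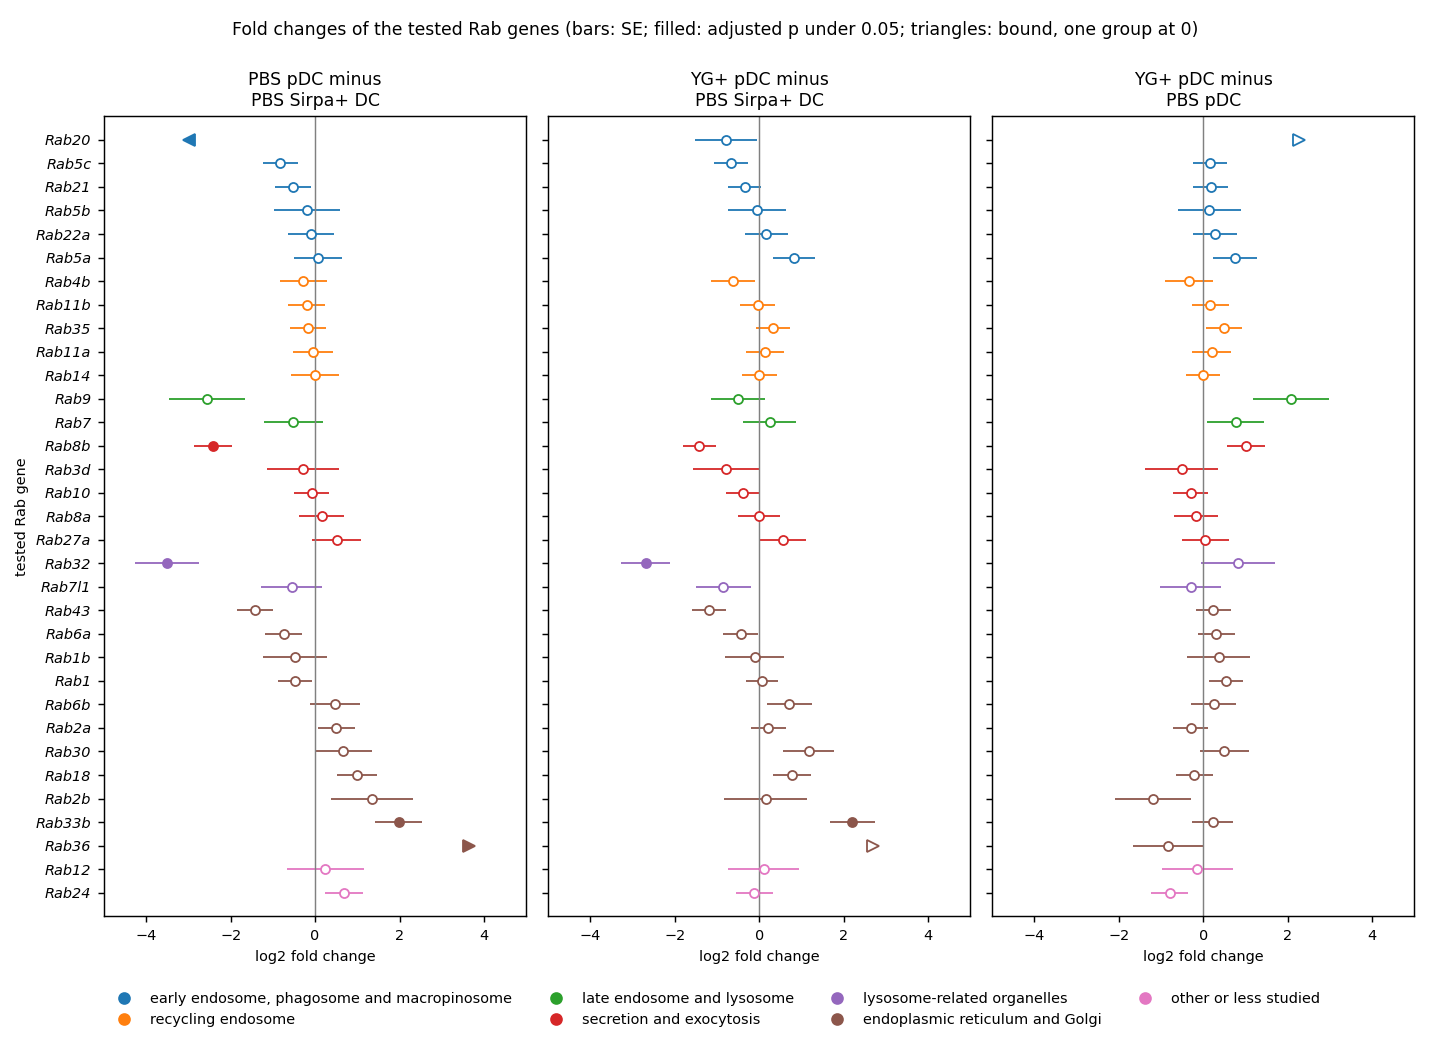
Log2 difference of each tested Rab gene in the 3 comparisons, with its standard error (bars) and coloured by role; triangles stand at the bound where a group had no read. Called genes are filled: 5 in PBS pDCs against PBS Sirpa+ DCs, 2 in YG+ pDCs against PBS Sirpa+ DCs and 0 in YG+ pDCs against PBS pDCs.

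Promoters are shown for the 3 called Rab genes that the RefSeq-derived promoter table (GRCm38.p6) holds and whose exon length is covered by opposite-strand exons to under 20% (Rab20 is at 25.6%): the lysosome-related Rab32 and exocytic Rab8b, high in Sirpa+ DCs, and the Golgi gene Rab33b, high in pDCs. Each window runs 5′ to 3′ on the gene's strand, from 250 bases before to 50 after the start. Capitals mark GAGGAA or its reverse complement.
Rab32, chr10:10558158-10558457, minus strand: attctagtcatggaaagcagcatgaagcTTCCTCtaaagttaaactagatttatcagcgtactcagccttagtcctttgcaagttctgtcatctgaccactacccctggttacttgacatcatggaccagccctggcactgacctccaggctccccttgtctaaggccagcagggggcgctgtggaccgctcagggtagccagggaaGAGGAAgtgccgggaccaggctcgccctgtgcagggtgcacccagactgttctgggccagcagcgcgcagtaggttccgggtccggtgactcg
Rab33b, chr3:51483716-51484015, plus strand: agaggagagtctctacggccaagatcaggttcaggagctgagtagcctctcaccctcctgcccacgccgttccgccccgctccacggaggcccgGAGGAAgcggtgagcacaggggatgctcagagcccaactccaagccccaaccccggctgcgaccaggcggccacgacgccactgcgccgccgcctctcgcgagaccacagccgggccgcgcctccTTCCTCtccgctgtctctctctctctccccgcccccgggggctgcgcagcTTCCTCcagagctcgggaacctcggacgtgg
Rab8b, chr9:66919656-66919955, minus strand: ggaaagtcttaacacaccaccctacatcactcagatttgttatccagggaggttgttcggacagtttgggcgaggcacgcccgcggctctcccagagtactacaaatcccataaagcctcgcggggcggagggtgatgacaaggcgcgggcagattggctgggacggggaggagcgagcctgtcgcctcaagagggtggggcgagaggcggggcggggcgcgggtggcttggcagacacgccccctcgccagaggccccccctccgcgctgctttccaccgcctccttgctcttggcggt
All windows were searched on both strands. GAGGAA, a core bound by the myeloid and pDC factors PU.1 and Spi-B, had 3 matches in Rab33b, 2 in Rab32 and 0 in Rab8b. The table matched 48 of the 58 Rab genes, and GAGGAA was in 8 of these (16.7%), against 28.3% of all 27025 promoters of the table. E proteins such as Tcf4 bind E-boxes. The E-box CAGGTG was in 8 Rab promoters (16.7%, against 20% of all), the E-box CAGCTG in 12 (25%, against 16.1%) and a further E-box, CATGTG, in 4 (8.33%, against 14.1%). The core of the interferon-stimulated response element was in 1 (2.08%, against 3.49%). None of these but GAGGAA matched in the windows shown, so no motifs overlap there. A match is a run of letters, not a bound site.

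Early endosome, phagosome and macropinosome genes comprised 8 members, 6 of them tested. Summed, the class was 287 and 319 CPM in PBS pDCs, 396 and 388 CPM in YG+ pDCs, and 415 and 562 CPM in Sirpa+ DCs, so the 3 groups did not overlap. Only Rab20 was called, lower in PBS pDCs. Rab20, which acts in phagosome maturation and macropinocytosis, lies on chromosome 8 at 11453518 to 11478710 (GRCm38), and an exon of the opposite strand covers 25.6% of its exon length. It had 0 reads in both PBS pDC libraries, 37.9 and 10.7 CPM in YG+ pDCs and 21.2 and 59.8 CPM in Sirpa+ DCs. With the empty group set to 3 counts over its libraries, PBS pDCs were at least 7.95-fold lower than the mean of Sirpa+ DCs (edgeR, adjusted p = 0.0271). Here and below, such a bound takes the mean of the group with reads, so it does not cover the spread of that group's libraries. YG+ pDCs were at least 4.78-fold higher than PBS pDCs, which did not pass edgeR's test (unadjusted p = 0.00643, adjusted p = 0.315). YG+ pDCs and Sirpa+ DCs overlapped, with a log2 difference of -0.78 ± 0.73 (SE, adjusted p = 0.567). The call was lost without PBS pDC replicate 2 (adjusted p = 0.0851) and without Sirpa+ DC replicate 1 (0.0551) or 2 (0.246).

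Rab5c, an isoform of the Rab5 proteins that drive fusion of early endosomes, had the highest mean CPM of this class. It was 114 and 134 CPM in YG+ pDCs, then 95.7 and 123 CPM in PBS pDCs, and 173 and 217 CPM in Sirpa+ DCs. Both Sirpa+ DC libraries were above all pDC libraries, but the difference did not pass in PBS pDCs (log2 -0.82 ± 0.41, adjusted p = 0.256) or in YG+ pDCs (-0.66 ± 0.39, adjusted p = 0.354). Its sister isoform Rab5a, named after its values were seen, had its highest values in YG+ pDCs, at 59.0 and 46.5 CPM. It was 25.5 and 34.7 CPM in PBS pDCs and 29.6 and 29.9 CPM in Sirpa+ DCs, and the YG+ pDC libraries lay above the others without a call (log2 0.82 ± 0.50 against Sirpa+ DCs, adjusted p = 0.367; 0.75 ± 0.52 against PBS pDCs, adjusted p = 0.619). Rab21, which carries integrins into the cell, was 76.5 to 111 CPM in the pDC libraries and 118 and 142 CPM in Sirpa+ DCs, with adjusted p of 0.510 and 0.653. Rab31 and Rab34 had too few reads for a test, and Rab31 counts were 12 and 3 in YG+ pDCs, 1 and 3 in PBS pDCs and 2 and 16 in Sirpa+ DCs.

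Late endosome and lysosome genes were 3, of which Rab7 and Rab9 were tested and neither was called. Rab7, the main Rab of late endosomes and of their fusion with lysosomes, was 60.4 and 51.9 CPM in YG+ pDCs, then 6.38 and 48.6 CPM in PBS pDCs, and 25.4 and 63.8 CPM in Sirpa+ DCs. The low PBS pDC value is a single read, and replicates of both PBS groups differed more than the group means did. Log2 differences were -0.52 ± 0.70 (PBS pDCs against Sirpa+ DCs, adjusted p = 0.721), 0.25 ± 0.63 (YG+ pDCs against Sirpa+ DCs, adjusted p = 0.851) and 0.77 ± 0.67 (YG+ against PBS pDCs, adjusted p = 0.707).

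Rab9, which returns mannose 6-phosphate receptors from late endosomes to the Golgi, was lowest in PBS pDCs. It was 6.38 and 4.63 CPM there, from 1 and 2 reads, 15.5 and 30.4 CPM in YG+ pDCs, and 21.2 and 39.9 CPM in Sirpa+ DCs. The PBS pDC libraries lay below all others, and neither difference passed. The log2 difference was -2.57 ± 0.90 against Sirpa+ DCs (adjusted p = 0.0972). For YG+ against PBS pDCs it was 2.07 ± 0.90 (edgeR, unadjusted p = 0.0415, adjusted p = 0.418).

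Lysosome-related organelle genes were 3: Rab32, Rab38 and Rab7l1. Their summed level was 118 and 109.7 CPM in Sirpa+ DCs, 29.5 and 21.5 CPM in YG+ pDCs and 38.3 and 18.5 CPM in PBS pDCs, so Sirpa+ DCs were apart from both pDC groups. Rab32, which with Rab38 delivers cargo to lysosome-related organelles such as melanosomes and acts in defence against intracellular bacteria, lies on chromosome 10 at 10545002 to 10558265, with no opposite-strand exon. It was 59.2 and 63.8 CPM in Sirpa+ DCs, 11.2 and 7.16 CPM in YG+ pDCs and 6.38 and 4.63 CPM in PBS pDCs. Both pDC groups were lower, by a log2 difference of -3.51 ± 0.75 in PBS pDCs (adjusted p = 0.0135) and -2.69 ± 0.59 in YG+ pDCs (adjusted p = 0.0195). The pDC groups did not differ detectably from each other (0.83 ± 0.88, adjusted p = 0.768). Reads were few, 1 and 2 in PBS pDCs and 8 and 4 in YG+ pDCs. Without Sirpa+ DC replicate 2 the adjusted p was 0.172 and 0.221, without Sirpa+ DC replicate 1 it was 0.0691 and 0.126, and without PBS pDC replicate 2 it was 0.0526 in the first comparison. The second comparison was also not called without YG+ pDC replicate 1 (0.138) or 2 (0.305).

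Rab38, the closest relative of Rab32, had too few reads for a test and is named after its values were seen. It lies on chromosome 7 at 88430273 to 88491572. It had 5 and 11 reads (21.2 and 21.9 CPM) in Sirpa+ DCs and 0 in all 4 pDC libraries. With each empty group set to 3 counts this is at least 4.23-fold lower in PBS pDCs and at least 9.13-fold lower in YG+ pDCs, with no test. Rab7l1, the Rab29 that recruits the kinase Lrrk2 to stressed lysosomes and the Golgi, was not called. It was 38.1 and 23.9 CPM in Sirpa+ DCs, 18.3 and 14.3 CPM in YG+ pDCs and 31.9 and 13.9 CPM in PBS pDCs, with a log2 difference of -0.55 in PBS pDCs (adjusted p = 0.709) and -0.85 in YG+ pDCs (adjusted p = 0.477) against Sirpa+ DCs, in the direction of Rab32.

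Secretion and exocytosis genes were 13, of which Rab3d, Rab8a, Rab8b, Rab10 and Rab27a were tested. The class summed to 702 and 628 CPM in Sirpa+ DCs and to 403 to 466 CPM in the 4 pDC libraries. Much of this gap was Rab8b. With Rab8b left out the sums of Sirpa+ DCs and PBS pDCs overlapped, while both YG+ pDC sums stayed below both Sirpa+ DC sums. Rab8b, which moves vesicles from the Golgi and recycling endosomes to the plasma membrane, was the called member. It lies on chromosome 9 at 66843664 to 66919687, with no opposite-strand exon. It was 279 and 279 CPM in Sirpa+ DCs, 115 and 93.0 CPM in YG+ pDCs, and 63.8 and 44.0 CPM in PBS pDCs, so the 3 groups did not overlap and YG+ pDCs lay between the others. PBS pDCs were lower than Sirpa+ DCs by a log2 difference of -2.42 ± 0.45 (adjusted p = 0.00674), the smallest adjusted p of any Rab gene. YG+ pDCs were lower by -1.42 ± 0.40, just short of the threshold (adjusted p = 0.0559). YG+ pDCs were above PBS pDCs by 1.01 ± 0.45 (edgeR, unadjusted p = 0.0452, adjusted p = 0.428). In the first comparison Rab8b kept its call in 14 of 15 alternatives, and without Sirpa+ DC replicate 2 its adjusted p was 0.0568. In the second it was called in 6 of 15, among them without PBS pDC replicate 1 (0.00619) or 2 (0.00673).

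The other 4 tested secretory Rab genes were not called. Rab10, which carries Toll-like receptor 4 and glucose transporters to the cell surface, had the highest mean CPM of the class. It was 179.8 and 175 CPM in YG+ pDCs, then 242 and 199 CPM in PBS pDCs and 279 and 187 CPM in Sirpa+ DCs. Its groups differed by less than their spread or did not pass, with log2 differences of -0.08, -0.38 and -0.30 in the 3 comparisons (adjusted p = 0.931, 0.619 and 0.818). Rab8a, the close paralogue of Rab8b, stayed within 37.0 to 57.4 CPM in all libraries. Rab27a, which docks secretory granules and lysosome-related organelles at the plasma membrane, was 74.4 and 76.9 CPM in YG+ pDCs, then 31.9 and 102 CPM in PBS pDCs and 29.6 and 67.8 CPM in Sirpa+ DCs, overlapping in the PBS groups (adjusted p = 0.667). Rab8a and Rab27a, like Rab26, are named after their values were seen. Rab26, of secretory granules, had 6 and 9 reads in Sirpa+ DCs, 9 and 2 in YG+ pDCs and 0 in PBS pDCs, at least 4.25-fold lower in PBS pDCs than in Sirpa+ DCs with no test. In CPM it was 25.4 and 17.9 in Sirpa+ DCs and 12.6 and 3.58 in YG+ pDCs, the same order of groups as for Rab8b.

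Genes of the endoplasmic reticulum and Golgi were 15, of which 11 were tested and 2 called. Their sum overlapped between all groups: 798 and 927 CPM in YG+ pDCs, then 785 and 789 CPM in PBS pDCs, and 774 and 987 CPM in Sirpa+ DCs. Single genes went both ways. In PBS pDCs against Sirpa+ DCs the libraries did not overlap for 7 genes higher and 3 lower (90.9%, against 47.1% of all tested genes). No test compared this class with other genes. Rab33b, a Golgi Rab that binds the autophagy protein Atg16l1, lies on chromosome 3 at 51483920 to 51496232, with an opposite-strand exon over 18.7% of its exon length. It was 81.5 and 161 CPM in YG+ pDCs, then 121 and 90.2 CPM in PBS pDCs, and 16.9 and 31.9 CPM in Sirpa+ DCs. All 4 pDC libraries were above both Sirpa+ DC libraries, with a log2 difference of 1.98 ± 0.56 in PBS pDCs (adjusted p = 0.0414) and 2.21 ± 0.53 in YG+ pDCs (adjusted p = 0.0294). The pDC groups overlapped (0.22 ± 0.48, adjusted p = 0.900). Without Sirpa+ DC replicate 1 the adjusted p was 0.231 and 0.248, and without replicate 2 it was 0.139 and 0.127. The first comparison was also not called without YG+ pDC replicate 1 (0.0516) or 2 (0.0552), and the second was not called without YG+ pDC replicate 2 (0.376).

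Rab36, a Golgi-region Rab of late endosome and lysosome positioning, lies on chromosome 10 at 75037058 to 75054748, with no opposite-strand exon. It had 0 reads in both Sirpa+ DC libraries, 76.5 and 25.5 CPM in PBS pDCs and 9.83 and 42.9 CPM in YG+ pDCs. PBS pDCs were at least 12.5-fold higher than Sirpa+ DCs (adjusted p = 0.0276), and YG+ pDCs at least 6.49-fold, which did not pass (adjusted p = 0.0645). Without Sirpa+ DC replicate 1 or 2 the adjusted p of the first comparison was 0.112 or 0.208. The second was called without YG+ pDC replicate 1 (0.0123) or PBS pDC replicate 1 (0.0183) or 2 (0.0194).

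Rab43, of the Golgi and of antigen cross-presentation in dendritic cells, was higher in both Sirpa+ DC libraries than in any pDC library and lay at the threshold. It lies on chromosome 6 at 87788853 to 87812164, with no opposite-strand exon. It was 300.4 and 407 CPM in Sirpa+ DCs, 152 and 159 CPM in YG+ pDCs and 108 and 150.4 CPM in PBS pDCs. The log2 difference was -1.43 ± 0.42 in PBS pDCs (adjusted p = 0.0504) and -1.19 ± 0.40 in YG+ pDCs (adjusted p = 0.106). The first was called with RLE factors (0.0467), limma-voom (0.0444), the replicate block (0.0481), over genes with no opposite-strand exon (0.0183) and without PBS pDC replicate 2 (0.0280). The second was called over genes with no opposite-strand exon (0.0198) and in a fit of 4 libraries (0.0163), and without PBS pDC replicate 1 (0.0172) or 2 (0.0186).

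Rab1, which carries vesicles from the endoplasmic reticulum to the Golgi, was 169 and 168 CPM in YG+ pDCs, then 128 and 106 CPM in PBS pDCs and 144 and 175 CPM in Sirpa+ DCs. PBS pDCs lay below the other groups without a call (log2 -0.47, adjusted p = 0.547, against Sirpa+ DCs and 0.54 ± 0.40, adjusted p = 0.657, for YG+ against PBS pDCs). Rab18, of lipid droplets and the endoplasmic reticulum, went the other way at 59.0 to 95.7 CPM in pDCs and 38.1 and 45.9 CPM in Sirpa+ DCs, and it did not pass (0.98 ± 0.47, adjusted p = 0.235). Rab6a, of traffic within the Golgi, was 57.4 to 100.2 CPM in pDCs and 144 and 104 CPM in Sirpa+ DCs. Rab18 and Rab6a are named after their values were seen.

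**Figure D3:**
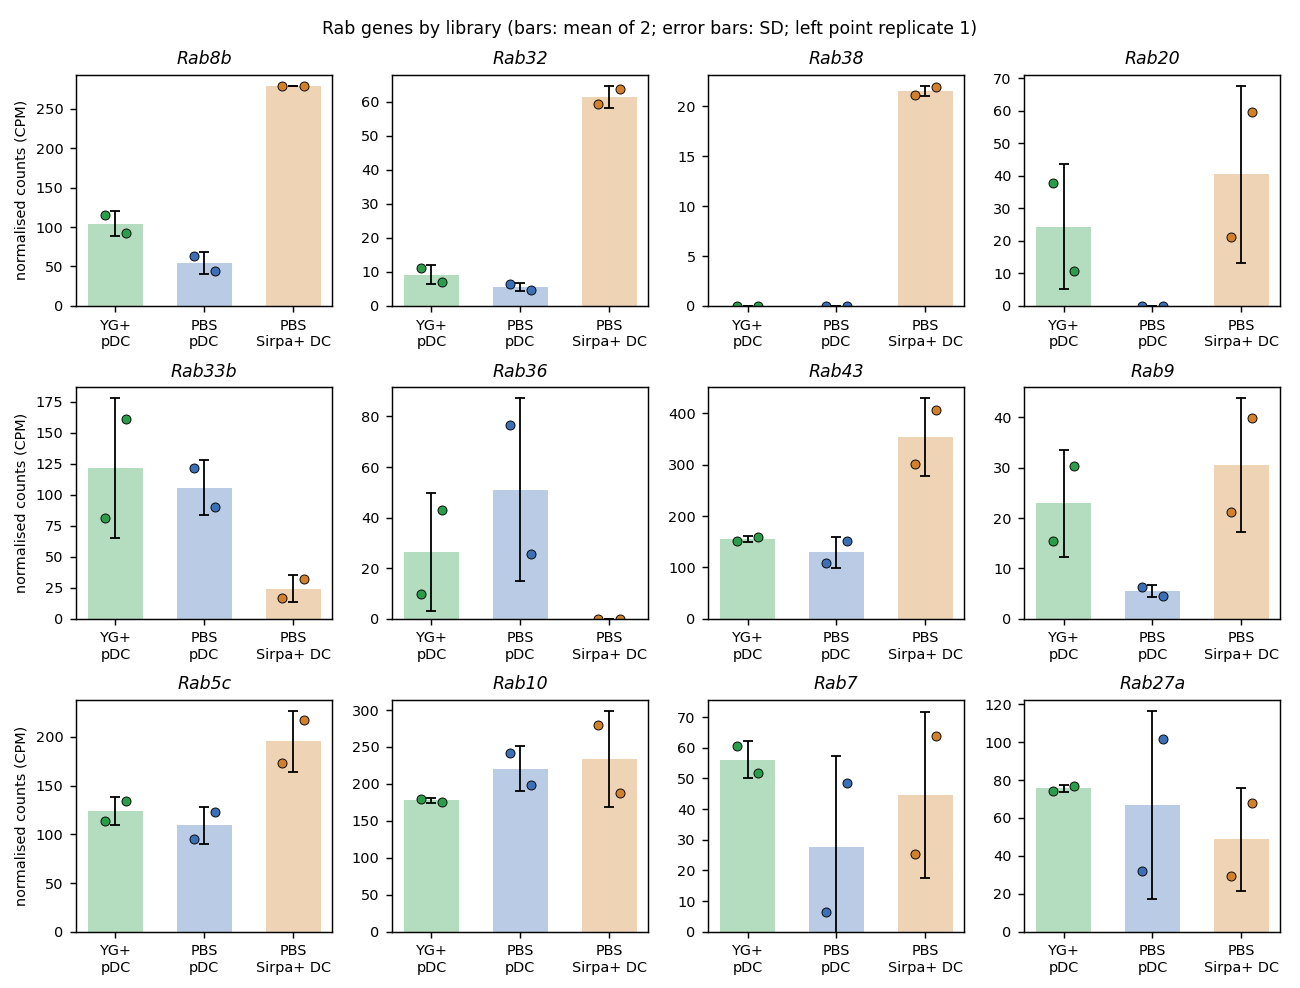
Level of 12 Rab genes in CPM by group, with a point for each library, bars for the mean of 2 libraries and error bars for the SD. Rab8b, Rab32 and Rab43 are highest in both PBS Sirpa+ DC libraries, Rab33b in all 4 pDC libraries, and Rab20 is at 0 in both PBS pDC libraries.

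Recycling endosome genes were 9, of which 5 were tested and 0 called in any of the 3 comparisons. Their summed level was the most even of the classes, from 369.9 CPM in PBS pDC replicate 1 to 422 CPM in YG+ pDC replicate 2, with 385 and 397 CPM in Sirpa+ DCs. Rab14, which works between endosomes, phagosomes and the Golgi, had group means of 116 ± 10.8 CPM (SD, n = 2) in YG+ pDCs, 112 ± 41.2 CPM in PBS pDCs and 116 ± 3.42 CPM in Sirpa+ DCs. Rab35, of fast recycling to the plasma membrane, was 122 and 104 CPM in YG+ pDCs, then 82.9 and 78.7 CPM in PBS pDCs and 71.9 and 106 CPM in Sirpa+ DCs, and YG+ pDCs did not pass against PBS pDCs (log2 0.49 ± 0.42, adjusted p = 0.702). Rab4b, of rapid recycling from early endosomes, was 25.3 and 28.6 CPM in YG+ pDCs, then 44.6 and 27.8 CPM in PBS pDCs and 38.1 and 43.9 CPM in Sirpa+ DCs (adjusted p = 0.825 and 0.527 against Sirpa+ DCs). Rab11a and Rab11b, of the slow recycling route, were within 46.5 to 102 CPM in all libraries.

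The 7 less studied genes gave 2 tested members and 0 calls. Rab24, linked to autophagy, was 95.5 and 148.5 CPM in YG+ pDCs, then 262 and 169 CPM in PBS pDCs and 157 and 109.7 CPM in Sirpa+ DCs. PBS pDCs were above the other groups, with a log2 difference of 0.68 ± 0.45 against Sirpa+ DCs (adjusted p = 0.411) and -0.80 ± 0.44 for YG+ against PBS pDCs (adjusted p = 0.533). Rab12, of transferrin receptor degradation, ranged from 7.16 to 33.9 CPM with overlapping groups.

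**Figure D4:**
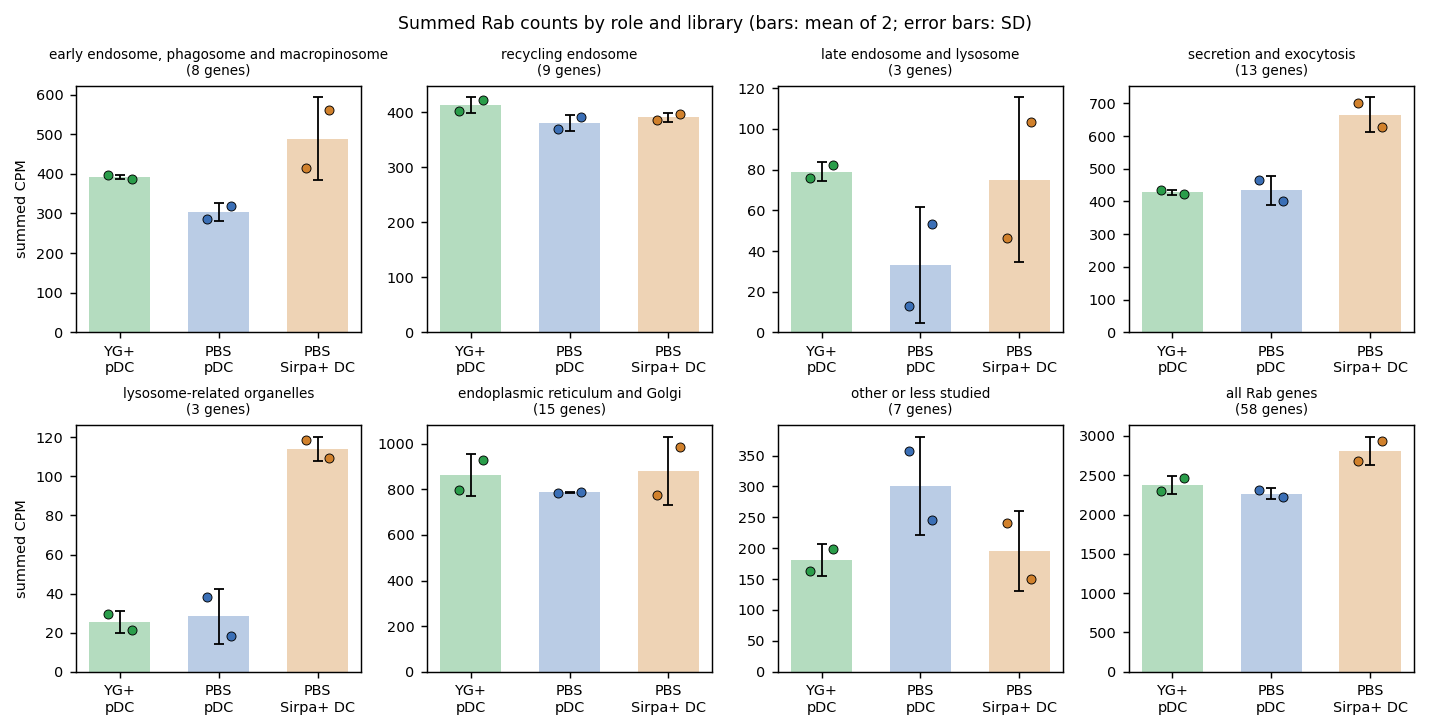
Summed CPM of each Rab role class by group, with a point for each library, bars for the mean of 2 libraries and error bars for the SD. The lysosome-related class is at 118 and 109.7 CPM in PBS Sirpa+ DCs against 18.5 to 38.3 CPM in the pDC libraries, and the recycling class stays within 369.9 to 422 CPM.

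Markers of other cells moved with these groups. The macrophage and monocyte list (9 genes) summed to 3728 and 6027 CPM in Sirpa+ DCs, 1584 and 590.5 CPM in YG+ pDCs and 255 and 62.5 CPM in PBS pDCs. Of its 9 genes 4 were at 0 in each PBS pDC library, Mertk among them, and Csf1r was 184 and 100.2 CPM in YG+ pDCs against 25.5 and 11.6 CPM in PBS pDCs. The mature dendritic cell list (7 genes) summed to 6220 and 5050 CPM in Sirpa+ DCs, 1878 and 1431 CPM in YG+ pDCs and 708 and 569 CPM in PBS pDCs. The group means of 10 of the 33 tested Rab genes stood in the same order as these lists: Rab8b, Rab32, Rab20, Rab9, Rab43, Rab5c, Rab21, Rab6a, Rab11b and Rab14. The early endosome sum did too. How many of all tested genes stood in this order was not counted. Rab14 means were nearly level, at 116.1 (Sirpa+ DCs), 115.8 (YG+ pDCs) and 112.0 CPM (PBS pDCs), and Rab11b libraries overlapped between all groups. Within YG+ pDCs, replicate 1, with the higher macrophage sum, had the higher level for 3 of the 10 Rab genes (Rab8b, Rab32 and Rab20). That sets 1 library against 1 other and was not tested. The B cell list (8 genes) summed to 920 to 1032 CPM in the pDC libraries and 63.5 and 35.9 CPM in Sirpa+ DCs, and the T cell list (8 genes) to 310 to 399 CPM against 42.3 and 35.9 CPM, with Cd3e at 0 in 5 of 6 libraries. Most of the T cell sum in pDCs was Cd8b1 (147 to 262 CPM) and Cd8a (51.0 to 106 CPM). Cd3g was at 0 in all libraries, and Cd3d was highest in Sirpa+ DC replicate 1 (25.4 CPM). Rab33b and Rab36 were high where the B and T cell lists were high, and the pDC marker list was high there too. Conventional DC type 1 markers (5 genes) summed to 588 and 534 CPM in Sirpa+ DCs and 82.9 to 145 CPM in pDCs, and thymic epithelial markers (5 genes) to 135 and 132 CPM against 6.38 to 30.9 CPM. Most of the epithelial sum in Sirpa+ DCs was Epcam, at 118 and 102 CPM, while Foxn1 was at 0 in all libraries. The Sirpa+ conventional DC list (8 genes) summed to 1536 and 2068 CPM in Sirpa+ DCs and 874 to 1401 CPM in pDCs. Of its genes, Sirpa, Itgax, Cd209a and Mgl2 were higher in both Sirpa+ DC libraries than in any pDC library. Cd4 (118 and 124 CPM against 166 to 322 CPM in pDCs) and Clec10a (42.3 and 31.9 against 102 to 171 CPM) went the other way. Irf4 was 157 and 169 CPM in Sirpa+ DCs and 275 and 286 CPM in YG+ pDCs. Erythroid markers (2 genes) summed to 21.9 to 102 CPM in all libraries. The part of these cells in the Rab values was not tested.

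Genes that control Rab proteins were also read, from 9 lists with 154 genes in the files, 121 of them tested. In PBS pDCs against Sirpa+ DCs 6 were higher and 12 lower (14.9%, near the 11.4% of all tested genes), with a median log2 difference of -0.17 (0.08 over all genes). In YG+ pDCs against Sirpa+ DCs 3 were higher and 7 lower (8.26%, against 7.16% of all tested genes, median 0.05), and between the pDC groups 0 were called (10 at an unadjusted p under 0.05, or 8.26%, against 11.4% of all, 9 of them higher in YG+ pDCs, median 0.19). Of 26 tested GAPs 2 were higher and 6 lower in PBS pDCs (30.8%, where 4.54% of all tested genes were higher and 6.89% lower), with a median of -0.74. No test compared this list with other genes. Tbc1d4, a GAP of Rab8 and Rab10 known for control of glucose transporter traffic, was 559 and 594 CPM in Sirpa+ DCs, 223 and 143 CPM in YG+ pDCs and 19.1 and 37.0 CPM in PBS pDCs. The groups did not overlap, and YG+ pDCs lay between the others, as for Rab8b. The log2 difference was -4.23 ± 0.52 in PBS pDCs (adjusted p = 9.56e-04) and -1.65 ± 0.43 in YG+ pDCs (adjusted p = 0.0416) against Sirpa+ DCs. Between YG+ and PBS pDCs it was 2.58 ± 0.51, which did not pass (adjusted p = 0.235), although no gene of the whole table had a smaller adjusted p there. Tbc1d16, a GAP of Rab4, was lower in PBS pDCs by -3.67 ± 0.54 (adjusted p = 0.00211) and Tbc1d9 by -3.30 ± 0.50 (adjusted p = 0.00240). In YG+ pDCs against Sirpa+ DCs 1 GAP was called higher and 5 lower (23.1%, against 7.16% of all tested genes). Sgsm3 was lower there by -3.60 ± 0.69 (adjusted p = 0.0108), Tbc1d9 by -2.30 ± 0.44 (adjusted p = 0.0111) and Tbc1d16 by -1.88 ± 0.42 (adjusted p = 0.0227).

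Among 26 tested GEFs 2 were higher and 3 lower in PBS pDCs than in Sirpa+ DCs (19.2%, against 11.4% of all tested genes). Rin3, which activates Rab5 and Rab31, was 389 and 321 CPM in Sirpa+ DCs, 63.2 and 87.7 CPM in YG+ pDCs and 89.3 and 53.2 CPM in PBS pDCs (log2 -2.38 ± 0.46, adjusted p = 0.00882, in PBS pDCs). Both pDC groups were thus well below Sirpa+ DCs and overlapped each other, while Rab5c itself was not called. Rab3il1, a GEF for Rab8, was 123 and 108 CPM in Sirpa+ DCs and 12.8 and 18.5 CPM in PBS pDCs (-2.77 ± 0.57, adjusted p = 0.0111). It was 53.4 and 28.6 CPM in YG+ pDCs (-1.46 ± 0.46 against Sirpa+ DCs, adjusted p = 0.0830). Dennd5b had 0 reads in Sirpa+ DCs and was at least 11.4-fold higher in PBS pDCs (adjusted p = 0.00757).

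Of the effector lists, recycling effectors had 0 higher and 2 lower of 15 in PBS pDCs against Sirpa+ DCs (13.3%, near the 11.4% of all tested genes). Rab11fip1, which links Rab11 to its carriers, was 220.03 and 177 CPM in Sirpa+ DCs, 68.8 and 73.4 CPM in YG+ pDCs and 31.9 and 25.5 CPM in PBS pDCs (-2.82 ± 0.47, adjusted p = 0.00412, in PBS pDCs and -1.47 ± 0.39, adjusted p = 0.0465, in YG+ pDCs). Rab11fip5 was the other one (-2.34 ± 0.56, adjusted p = 0.0218). Of 13 late endosome effectors 1 was higher (7.69%), Fyco1, which ties Rab7 vesicles to kinesin (1.78 ± 0.50, adjusted p = 0.0419). Of 11 lysosome-related organelle effectors 1 was lower (9.09%), Lrrk1 (-1.76 ± 0.42, adjusted p = 0.0207). Of 8 Golgi effectors 1 was higher (12.5%), Kif20a, with an opposite-strand exon over 29.3% of its exon length. The shares of these lists were also near the 11.4% of all tested genes. Early endosome effectors (11 tested), secretion effectors (5) and the GDI, escort and prenylation list (6) had 0 calls in any of the 3 comparisons. Gdi2, a GDI, was 423 to 628 CPM in all libraries.

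**Figure D5:**
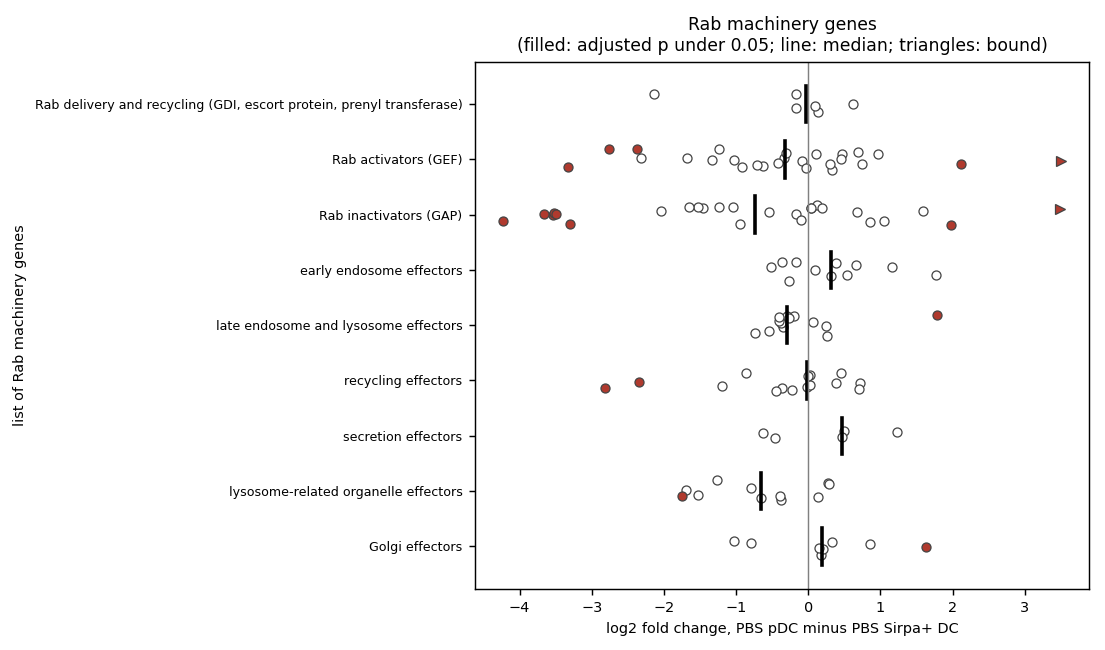
Log2 difference (PBS pDCs minus PBS Sirpa+ DCs) of the tested genes of the 9 Rab machinery lists, with called genes filled, a line at each list's median and triangles at the bound for genes with no read in a group. Among GAPs 2 are called higher and 6 lower of 26.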

How the data were processed

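Each deposited file held whole-number counts of reads per gene symbol for 1 library, not normalised, as the authors deposited them. Per the labels' protocols, TRIzol RNA (5 ng) went into the Ovation SoLo Mouse kit, and all samples were 1 batch. The submitters' processing notes name bcl2fastq 2.17 and mm10; for the aligner, counter, annotation and strand setting, the sources used here give nothing. Summary lines that name no gene held 97.7% to 99.5% of records and were left out.

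Genes passing edgeR's filterByExpr (8141) were tested with edgeR 4.0.16 (glmQLFit, glmQLFTest; R 4.3.3) in 1 fit of 3 group means over all 6 libraries, with TMM factors of 0.924 to 1.09 and no block. The fit left 3 residual degrees of freedom, with a biological coefficient of variation of 33.0%. Calls needed a Benjamini-Hochberg adjusted p under 0.05. Replicates differed by more than counting noise (chi-square per degree of freedom 2.76 to 11.9), so none was counted as the same library deposited again. Coordinates, exon lengths and opposite-strand exons came from GENCODE M21 (GRCm38), which matched all 58 Rab genes. Alternatives were other scalings, filters, DESeq2 1.42.0, limma-voom (limma 3.58.1), a fit of 4 libraries, a replicate block, each library left out, and genes with no opposite-strand exon.

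The members, role classes and lists were chosen with earlier results of these data known. Printed in full are called members and, per role class, the member with the highest mean CPM and that with the smallest p per comparison. Machinery lists name at most the 3 called genes with the smallest p.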

Additional observations from a re-analysis of the deposited data

How the results depend on the processing

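Calls rested on 2 libraries a group and on few reads. In PBS pDCs against Sirpa+ DCs, 931 genes and 5 Rab genes were called. A fit of only these 4 libraries called 580 genes and 2 Rab genes, limma-voom called 3 Rab genes, and leaving out 1 library gave 214 to 1297 genes and 0 to 5 Rab genes (0 without Sirpa+ DC replicate 2, 1 without Sirpa+ DC replicate 1). In YG+ pDCs against Sirpa+ DCs, 583 genes and 2 Rab genes were called, against 894 and 4 with no filter and 1480 and 5 in a fit of 4 libraries. Leaving out 1 library gave 69 to 1487 genes and 0 to 6 Rab genes (0 without either Sirpa+ DC library or YG+ pDC replicate 2, 6 without either PBS pDC library). In YG+ against PBS pDCs, 0 genes were called, against 141 with no filter (1 Rab gene, Rab20, adjusted p = 0.0179) and 111 by DESeq2 (0 Rab genes). Leaving out 1 library gave 0 to 870 genes and 0 Rab genes.

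Replicate numbers were checked for pairing: differences between replicates correlated at -0.121 (YG+ and PBS pDCs), -0.099 (YG+ pDCs and Sirpa+ DCs) and 0.298 (PBS pDCs and Sirpa+ DCs) over 8141 genes. Only the last is above 0.1 and the labels tie no numbers together, so the numbers were not taken to pair the samples, although a shared source of the PBS libraries of a number was not tested. With the replicate block 942, 635 and 0 genes and 6, 2 and 0 Rab genes were called, in the order of the comparisons above, and the sixth was Rab43.

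A log2 difference changed sign in 30 cases, each with an adjusted p of at least 0.514, and the cause was not tested. For PBS pDCs against Sirpa+ DCs these were Rab14 (0.0465 with upper-quartile factors, 0.0170 without opposite-strand genes) and, over left-out libraries, Rab10 (-0.31 to 0.22), Rab14 (-0.53 to 0.29), Rab35 (-0.40 to 0.20), Rab4b (-0.572 to 0.0517) and Rab7 (-2.92 to 0.40). For YG+ against PBS pDCs they were Rab14 (0.0594 with no filter, 0.0537 at a filter of 10 CPM, 0.0351 with the block) and Rab5c (-0.0344 without opposite-strand genes), and over left-out libraries Rab14 (-0.30 to 0.52) and Rab33b (-0.32 to 0.65). For YG+ pDCs against Sirpa+ DCs they were Rab1 (-0.0152 with RLE factors, -0.0144 with DESeq2, -0.10 without opposite-strand genes) and Rab14 (0.0241 with upper-quartile factors, 0.0458 with no filter, 0.0023 with the block). Over left-out libraries there they were Rab1 (-0.0904 to 0.227), Rab14 (-0.106 to 0.0684), Rab20 (-1.96 to 0.23), Rab24 (-0.47 to 0.15), Rab7 (-0.21 to 1.14) and Rab9 (-1.02 to 0.10).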
